A study of Mus musculus with 24 samples.

Results

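Adult liver was compared with 4 other mouse tissues on long noncoding RNA (lncRNA) microarrays. The comparison took the 3 arrays labelled Liver and the 12 arrays labelled Brain, Heart, Kidney or Testis, 3 of each, out of 24 arrays in the series. All 60804 transcript probes of the array entered it. The tissues came frozen from wild-type ICR male mice aged 8 weeks, which had no treatment, and the methods call the replicates biological. The remaining arrays, of the lines GC-1, GC-2 and F9, were used only where stated. The array carries probes for annotated lncRNAs and for mRNAs, and total RNA was labelled with Cy3, so each array has a single color. Throughout, a level is the log2 of a probe's processed signal relative to the 75th percentile of its array, and a difference is the liver level minus the mean of the 4 tissue levels. Since a level is relative to the array, it cannot tell fewer cells of a type from less RNA per cell.

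Hepatocytes, the main cells of the liver, make most of the plasma proteins, clear foreign compounds and steroids through cytochrome P450 enzymes, and in mice secrete major urinary proteins (Mups), small carriers of volatile pheromones that pass into urine. A few such gene families supply a large part of liver mRNA. LncRNAs annotated at these genes may be pseudogenes of the family, noncoding isoforms that share exons with the coding transcript, or antisense transcripts, and a probe in a shared exon or a close paralog reads both.

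The probes carry no gene names in the array files, so names were taken from the study's supplementary lists of tissue-specific lncRNAs and of brain and F9 transcripts, which cover 3295 probes (5.42%), 3035 for lncRNAs and 260 for mRNAs. These lists hold transcripts found in particular tissues or lines, so named probes are not a sample of all probes. Of the named probes, 1829 come with their printed probe sequence. The probes below are examples, chosen after the values were seen, of groups of raised and lowered probes that the sequence itself makes visible. The first group holds probes raised in liver that carry an uninterrupted run of alternating G and T, and the capitals mark that run.

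humanlincRNA0559: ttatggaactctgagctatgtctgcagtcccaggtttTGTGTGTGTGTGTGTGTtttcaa
XLOC_023801: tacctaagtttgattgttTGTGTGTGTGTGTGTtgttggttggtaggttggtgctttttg
9330020H09Rik: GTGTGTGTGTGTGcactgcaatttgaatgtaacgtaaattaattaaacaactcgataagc
XLOC_027217: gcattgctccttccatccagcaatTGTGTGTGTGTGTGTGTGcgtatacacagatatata
AK089870: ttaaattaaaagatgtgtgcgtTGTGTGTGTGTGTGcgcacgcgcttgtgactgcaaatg
Gm6548: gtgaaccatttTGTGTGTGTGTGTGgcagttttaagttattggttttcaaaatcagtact

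The second group holds probes lowered in liver that carry the complementary run of alternating C and A, again in capitals.

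XLOC_021497: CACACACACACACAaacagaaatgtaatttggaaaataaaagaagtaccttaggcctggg
AK019605: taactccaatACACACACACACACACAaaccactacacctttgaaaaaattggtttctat
AK134360: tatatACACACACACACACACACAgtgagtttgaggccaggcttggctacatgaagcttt
AK132839: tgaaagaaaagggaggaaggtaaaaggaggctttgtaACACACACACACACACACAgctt

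The third group holds probes lowered in liver that contain neither run, printed in lower case since no letters were singled out.

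AK031998: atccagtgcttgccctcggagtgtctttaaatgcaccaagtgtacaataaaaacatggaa
AK008716: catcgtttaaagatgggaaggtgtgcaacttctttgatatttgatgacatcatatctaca
Gm8096: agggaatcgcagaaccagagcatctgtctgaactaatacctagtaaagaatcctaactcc
AB352175: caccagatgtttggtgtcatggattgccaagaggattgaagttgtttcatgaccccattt

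On the GRCm38 build, as the study's list gives them, humanlincRNA0559 is intergenic at chr14:56714686-56715350 (minus strand), XLOC_027217 is intergenic at chrX:95960358-95968776 (minus strand) and XLOC_023801 lies at chr8:72548395-72559780 (plus strand), head to head with Med26. The 9330020H09Rik lncRNA (chr15:98567324-98570864, plus strand) overlaps exons of Ccnt1 on the opposite strand, as AK089870 (chr6:86261555-86263914, minus strand) does those of Tgfa. AK019605 (chr12:72407426-72410215, plus strand) is antisense to exons of Rtn1. AK031998 (chr6:54505894-54507918, minus strand), AK008716 (chr5:91625188-91626743, plus strand), Gm8096 (chr8:28083194-28084853, minus strand) and AB352175 (chr9:27349029-27351206, plus strand) are intergenic. The probes of the study's liver-specific lncRNAs have no printed sequence among these lists.

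The liver arrays were the dimmest of the tissue arrays. Their 75th percentile intensity was 30.7 to 49.8, against 63.5 to 384 on the 12 others, and 18257 to 21349 of their probes were well above background, against 25427 to 37393. Liver replicate 1 stood apart in its background. The 95th percentile of its negative control spots was at 13.6, against 2.97 to 4.03 on the other 14 tissue arrays, and results that rest on it are given without it below. Over the 16277 probes well above background on all 3 liver arrays, the liver replicates correlated at r = 0.968 to 0.975. Marker probes fixed for each tissue were then read. All liver markers among the named probes were well above background on the 3 liver arrays, Mup-ps18 at a level of 11.96 ± 0.64 and Nr1i3 at 5.73 ± 0.83 (SD, n = 3). Of the 5 brain, 5 heart, 7 kidney and 5 testis marker probes, 0 were well above background on all 3 liver arrays. These marker probes, those of liver included, come from lists that the study chose on the same arrays for each tissue. The detection of all liver markers and those counts of 0 were therefore fixed by that choice and are no independent check of the label. Of the brain, heart, kidney and testis markers only Adam18, a sperm surface protein gene, was well above background on a liver array, replicate 1 (0.01). Hba-ps4, a globin pseudogene that stands for red blood cells, read 11.76, 11.61 and 10.94 on the liver arrays and up to 11.98 in heart, a difference of 1.91.

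A probe was called raised in liver when its level was at least 5-fold above the mean of the 4 tissues at a limma adjusted p of 0.05 or less and it was well above background on all 3 liver arrays. Under this rule 2459 of 60804 probes (4.04%) were raised. The mirror rule, with detection asked of all 12 other arrays, called 990 probes (1.63%) lowered. Raised probes differed by a median of 3.99 on the log2 scale and lowered probes by -3.05. Against each of the 4 tissues in turn, 1068 probes (1.76%) were raised and 146 (0.240%) lowered. The 3 liver arrays lay above all 12 others for 1879 of the raised probes and below all 12 for 628 of the lowered probes, where 3357 of all probes (5.52%) and 1264 (2.08%) met the same conditions with no fold asked. The largest raised differences belonged to probes without a name here, ASMM10P027189 (17.06, SE 0.90) and ASMM10P027206 (16.92, SE 0.47), and so did the largest lowered ones, ASMM10P029611 (-9.99, SE 0.77) and ASMM10P046279 (-8.87, SE 0.62). The 5-fold limit corresponds to a difference of 2.32, and the probes next to it stood at 2.323 inside and 2.3214 outside.

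The balance of raised and lowered probes depended on the scale. Over all probes the median difference was 0.91, and over the 14538 probes well above background on all 15 tissue arrays it was 0.52, so a difference near 0.9 is the middle of the array and not a change of its own. Of the called probes 71.3% were raised. That share was 53.3% (1894 raised, 1660 lowered) when arrays were scaled on the probes detected on all 15 arrays, 63.6% (2172 and 1245) after quantile normalization and 35.4% (1522 and 2775) when each array was scaled to its summed signal. The median difference of all probes then became 0.32, -0.00 and -0.22. Raised and lowered members named below keep their direction under these scalings.

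**Figure D1:**
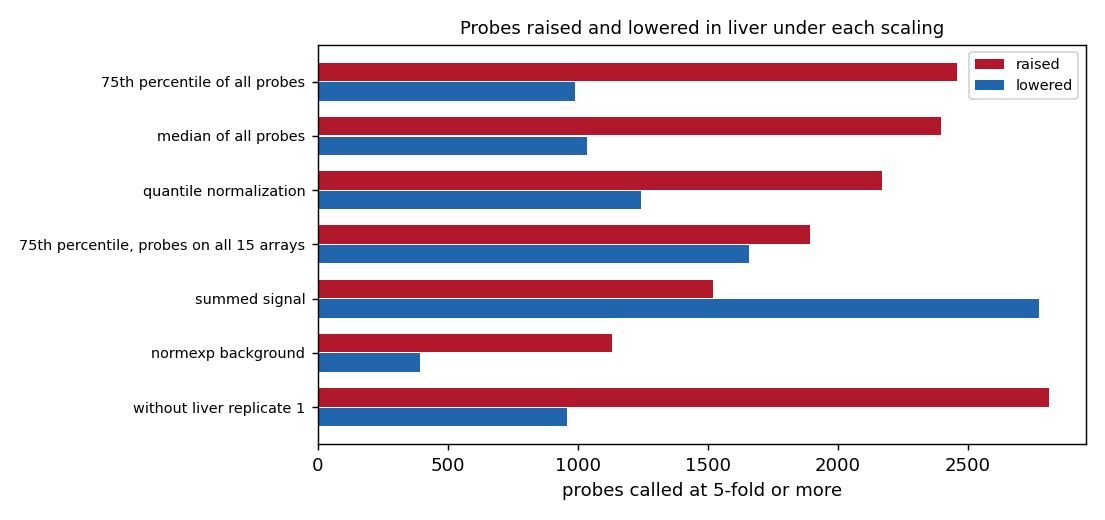
Number of probes called raised (red) and lowered (blue) in liver at 5-fold or more, of 60804, under each scaling and without liver replicate 1. Raised probes outnumber lowered ones in every row except summed signal, where 1522 were raised and 2775 lowered.

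The other tissues differed in the number of probes called against liver. The fold and adjusted p were the same, with detection on all 3 liver arrays for raised probes and all 3 arrays of the tissue for lowered ones. Called raised and lowered were 1571 and 2070 probes against kidney, 2376 and 2666 against heart, 2937 and 3929 against brain, and 6123 and 6256 against testis. Kidney was also the tissue in which raised probes most often had their next highest level, for 1299 of 2459, followed by heart with 620, brain with 282 and testis with 258. Among the 1068 probes raised against each tissue the lead was smaller, with 429 for kidney, 345 for heart, 157 for brain and 137 for testis. The share over all probes was not counted, so this order is not shown to be particular to raised probes. The 4 comparisons with single tissues share the liver arrays and were made under the main scaling only. The tissues also differed in probes well above background, with 25978 to 27930 on the kidney arrays and 34999 to 37393 in testis. The counts therefore do not measure a distance between tissues. Of the raised probes 157 were well above background on no array of another tissue. Of the lowered probes 557 were well above background on no liver array and 210 were so on all 3.

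Among the 3295 named probes 117 (3.55%) were raised and 67 (2.03%) lowered, beside 4.04% and 1.63% of all probes. All of them kept their direction under 4 other scalings and normexp background correction, and 58 of the 117 and 43 of the 67 kept a 5-fold difference under every one. The 48 probes of the study's list of liver-specific lncRNAs are all among the 117, but the study chose them on these arrays by a like criterion, so their count is a description and not independent evidence. The other 69 raised names come from the lists of brain and F9 transcripts. Of the 1829 sequenced probes 3.77% were raised and 3.66% lowered. By position, 29 of 433 sequenced lncRNAs that share exons with a gene on the same strand were raised and 21 lowered, 29 and 33 of 974 intergenic ones, 5 and 6 of 87 exonic antisense ones, 4 and 3 of 192 intronic antisense ones, 2 and 1 of 47 bidirectional ones, and 0 and 3 of 96 that lie in introns on the same strand.

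The Mup locus on chromosome 4 gave the largest named differences, and all 5 of its listed probes were raised (median difference 12.43). Mup-ps18, a Mup pseudogene (chr4:61874703-61883317 on GRCm38.p6), read 11.29, 12.56 and 12.03 on the liver arrays, while the 12 other arrays ran from -6.81 over a median of -4.39 to -2.04. It was well above background on 1 kidney and 1 testis array. The study's primer pair for it reads tgagactttttctggagcacatct forward and ttctgttttgtcagcaaccatag reverse. Mup-ps12 (chr4:61440589-61538481) read 9.42, 10.26 and 9.18 in liver and was well above background on no other array, where its readings lay between -6.75 and -3.90.

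The noncoding transcripts of Mup11 and Mup2, coding members of the family, read 7.70 to 8.35 and 4.74 to 5.48 in liver. Mup11 was also detected on 1 brain array. Mup-ps15 (chr4:61675160-61702571) read 5.04, 6.45 and 5.63 in liver, at least 339-fold above the highest other tissue, in which it was not well above background. Bounds of this kind put each array's lowest signal well above background in place of a dimmer probe. The 5 probes spanned levels from 5.15 to 11.96 on average, and in each of them the liver arrays were far above the other 12. Together they held 0.344% of the liver signal. Members of the Mup family are near-identical in sequence, so their probes may share targets and are not 5 independent readings.

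Noncoding transcripts annotated at drug and steroid metabolism genes followed, with 7 of 7 listed probes raised (median 10.71). Cyp2d37-ps, a cytochrome P450 pseudogene, read 5.89, 7.03 and 6.60 in liver and -6.30 to -4.24 elsewhere, at least 590-fold above any other tissue. The Cyp2c40 transcript, from a P450 of fatty acid and drug oxidation, read 7.34, 6.57 and 7.29 in liver and between -5.48 and -2.74 on the other arrays. Cyp2c70 encodes the mouse enzyme that makes muricholic bile acids, and its transcript read 5.77, 5.34 and 6.34 in liver and no higher than -3.29 elsewhere, at least 366-fold apart. The groups did not overlap for any of these members. Nr1i3 encodes the constitutive androstane receptor, which induces P450 genes, and its noncoding isoform read 5.20, 6.69 and 5.29 in liver and -3.24 or less elsewhere. Cyp2d13 (8.49), Akr1c6, a hydroxysteroid dehydrogenase (6.68), and Ces3b, a carboxylesterase (5.34), completed the list with smaller differences. The limma adjusted p was 5.73e-09 or less for each of these 3.

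Noncoding transcripts annotated at lipoprotein and amino acid genes were dimmer and all 4 listed probes were raised (median 6.11). Their levels are not those of the coding mRNAs. Pon1, the paraoxonase of high density lipoprotein, read 1.63, 1.49 and 1.62 in liver, the tightest replicates of the group. The lncRNA at Apoa1, the gene of the main protein of that lipoprotein, read 1.15, 1.72 and 0.70. Neither was well above background on another array. Gls2, the liver-type glutaminase, differed by 5.72 (SE 0.24) and Tdo2, which opens the tryptophan ring, by 5.55 (SE 0.33). Each was detected on 1 brain array as well. Since the other tissues were near or below background, these sizes rest on its treatment. After normexp correction the differences of Pon1 and Tdo2 were 2.64 and 2.33, while those of Apoa1 (2.18) and Gls2 (2.04), and of Ces3b above (1.71), fell short of 5-fold. That of Mup-ps18 was then 12.27. The 4 liver levels lay between 0.89 and 1.71, far below those of the Mup probes, but these probes differ in target and cannot be ranked as amounts of RNA.

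Of noncoding transcripts at genes known from sinusoid cells and leukocytes, 5 of 5 listed probes were raised (median 6.91). Clec4g, a lectin of liver sinusoidal endothelium, read 4.60, 4.88 and 4.04 in liver and was detected on 2 heart arrays (up to -2.14). The Cd1d2 pseudogene of the lipid antigen presenting family was read by 2 probes, which differed by 8.18 and 6.91. Cyth4, a signalling gene of leukocytes, differed by 6.36 (SE 0.32). The first 4 lists were drawn from the study's liver list, so their counts of 5, 7, 4 and 5 were fixed by that choice.

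**Figure D2:**
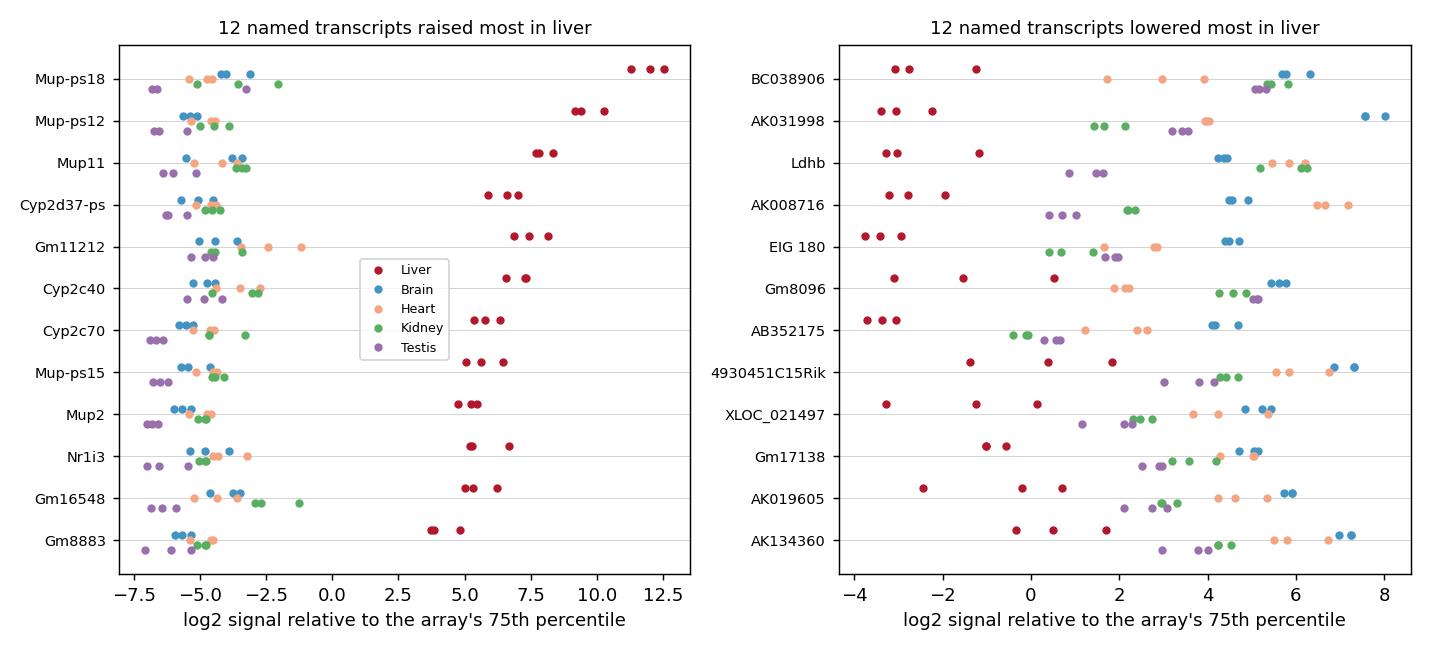
Levels (log2 signal relative to the 75th percentile of the array) of the 12 named transcripts raised most and the 12 lowered most in liver, 1 point per array and 3 arrays per tissue. The liver points (red) of Mup-ps18 stand at 11.29 to 12.56, and those of AK031998 at -3.39 to -2.23, in neither case overlapping another tissue.

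Outside these lists the rule for named genes brought in Gm11212 (11.43), a pseudogene of the acute phase protein orosomucoid, and the lncRNAs Gm16548 (9.80) and Gm8883 (9.52). Gm11212 read 6.85, 8.16 and 7.44 in liver and between -5.33 and -1.19 on the other 12 arrays. Gm16548 was the only one of these 3 detected in kidney, on 1 array at -1.27. The following 6 raised names, all of lncRNA probes, were chosen after their values were seen. The Kng1 transcript, of the plasma kininogen gene, read 8.19, 7.28 and 7.11 in liver against a median of 4.23 (SE of the difference 0.24). Kidney was nearest at 5.55 to 6.17, and liver exceeded it by 1.63, less than 5-fold. P4hb, a disulfide isomerase, read 10.62, 10.01 and 10.33 and had its nearest level in kidney (9.13 to 9.44). Hsp90b1, the chaperone of the endoplasmic reticulum, read 8.68, 8.47 and 8.59, with 6.06 as the highest of the other arrays. Larger differences were seen for Mbd3, a chromatin gene (5.51), H2-K2, of the major histocompatibility complex (4.27), and Ltb, a lymphotoxin (3.93). At their lowest over the scalings they were 4.37, 3.13 and 2.80, while Kng1, P4hb and Hsp90b1 fell to 2.01, 2.23 and 1.96, short of 5-fold. H2-K2 was uneven, with 7.94, 9.11 and 6.52 in liver, and overlapped kidney replicate 3 at 6.73 (SE of the difference 0.68). The Kng1 probe is 1 of 5 sequenced probes that hold a stretch of 17 bases from the start of the B2 repeat, a short interspersed element. That of AK134812 is shown with the stretch in capitals.

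AK134812: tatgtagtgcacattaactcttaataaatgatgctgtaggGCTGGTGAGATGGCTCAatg

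Of these 5 probes 4 were raised, beside 3.77% of all sequenced probes, with a median difference of 2.49 over all 5. The 2 probes with the complementary stretch differed by -0.58 and -0.68. Other stretches of B2 did not share this. Of the probes with a stretch from its middle 0 of 4 were raised, and of those with its end 0 of 13. With a stretch of B1, another repeat, 0 of 4 were raised. Differences of the 5 start-stretch probes ran from 2.07 to 3.14, and the 5-fold limit lies inside that range. Those with the middle stretch ran from 0.80 to 1.76 and those with the end from -0.19 to 1.41. Kng1, with the largest difference of the 5, fell to 2.01 at its lowest over the scalings, short of 5-fold. Whether the start stretch accounts for the raised calls was not tested. The start stretch was searched after the values were seen, so the counts are a description.

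The promoters of 4 raised genes are shown, those that hold CAAAGTCCA or TGTTTAC. Whether the transcripts that the probes read begin at these starts was not tested. RefSeq on GRCm38.p6 gives promoters of 14 of the 20 genes on the first 4 lists, each with 250 bases before and 50 after a transcription start. The capitals mark CAAAGTCCA (HNF4 type), TGTTTAC (FOXA type) and TATAAA on either strand. These letters do not overlap one another in the windows shown.

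Mup-ps12 (chr4:61440339-61440638, plus strand): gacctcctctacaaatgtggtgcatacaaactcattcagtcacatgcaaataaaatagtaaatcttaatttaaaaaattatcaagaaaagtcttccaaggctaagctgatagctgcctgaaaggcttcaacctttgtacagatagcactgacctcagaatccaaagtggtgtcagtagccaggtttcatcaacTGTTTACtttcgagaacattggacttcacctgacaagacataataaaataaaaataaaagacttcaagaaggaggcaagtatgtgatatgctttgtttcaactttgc
Mup-ps15 (chr4:61674910-61675209, plus strand): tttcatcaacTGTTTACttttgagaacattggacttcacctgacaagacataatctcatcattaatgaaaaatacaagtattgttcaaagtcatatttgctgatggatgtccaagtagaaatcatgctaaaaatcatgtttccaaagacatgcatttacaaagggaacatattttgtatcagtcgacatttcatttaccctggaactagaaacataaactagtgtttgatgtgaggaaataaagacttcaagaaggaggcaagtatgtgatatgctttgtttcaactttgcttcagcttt
Cyp2c40 (chr19:39812765-39813064, minus strand): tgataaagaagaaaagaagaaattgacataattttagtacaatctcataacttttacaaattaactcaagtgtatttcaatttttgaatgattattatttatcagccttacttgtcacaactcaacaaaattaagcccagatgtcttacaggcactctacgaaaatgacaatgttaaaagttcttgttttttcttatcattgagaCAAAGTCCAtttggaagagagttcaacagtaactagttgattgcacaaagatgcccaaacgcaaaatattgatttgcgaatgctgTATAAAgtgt
Cyp2c70 (chr19:40187237-40187536, minus strand): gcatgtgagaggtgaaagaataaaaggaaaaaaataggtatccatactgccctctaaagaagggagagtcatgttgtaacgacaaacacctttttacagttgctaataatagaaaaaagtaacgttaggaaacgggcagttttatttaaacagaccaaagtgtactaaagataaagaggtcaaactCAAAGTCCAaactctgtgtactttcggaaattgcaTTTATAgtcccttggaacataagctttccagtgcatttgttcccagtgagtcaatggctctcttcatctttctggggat

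A gene was counted when any of its listed promoters held the letters on either strand. CAAAGTCCA stood at 2 of the 14 genes, Cyp2c40 and Cyp2c70, and at 0.555% of all 27025 genes with a promoter. TGTTTAC stood at 2 of 14, Mup-ps12 and Mup-ps15 (4.05% of all genes), TGTTTGC at 2, Apoa1 and Tdo2 (5.76%), and TATAAA at 8 (15.7%), among them Mup-ps12 and Mup-ps15 at starts not shown. TTGCGCAA, the C/EBP palindrome, was at 0 of 14 and at 0.207% of all genes. The promoters of Mup-ps12 and Mup-ps15 share an unbroken run of 51 bases. A match describes the letters only.

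The probes with GT and CA runs were noticed after the values were seen, so their counts are given as a description with no test. Among the 1829 sequenced probes, 69 (3.77%) were raised and 67 (3.66%) lowered. A GT run of 12 bases or more occurred in 12 probes, and all 12 were raised, with a median difference of 6.16 and a range of 2.72 to 7.02. A CA run of that length occurred in 5 probes, and all 5 were lowered, with a median of -4.71 and a range of -5.05 to -3.99. In none of these 17 probes did liver overlap the other tissues, and of the GT-run probes all but Gm6548 stayed over 5-fold under every scaling. With runs of 8 bases or more, 18 of 23 GT probes were raised and 0 lowered, and 6 of 10 CA probes were lowered and 0 raised. Of the 1796 probes with neither run of that length, 51 (2.84%) were raised and 61 (3.4%) lowered. Probes that share a run share sequence and are not independent members.

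**Figure D3:**
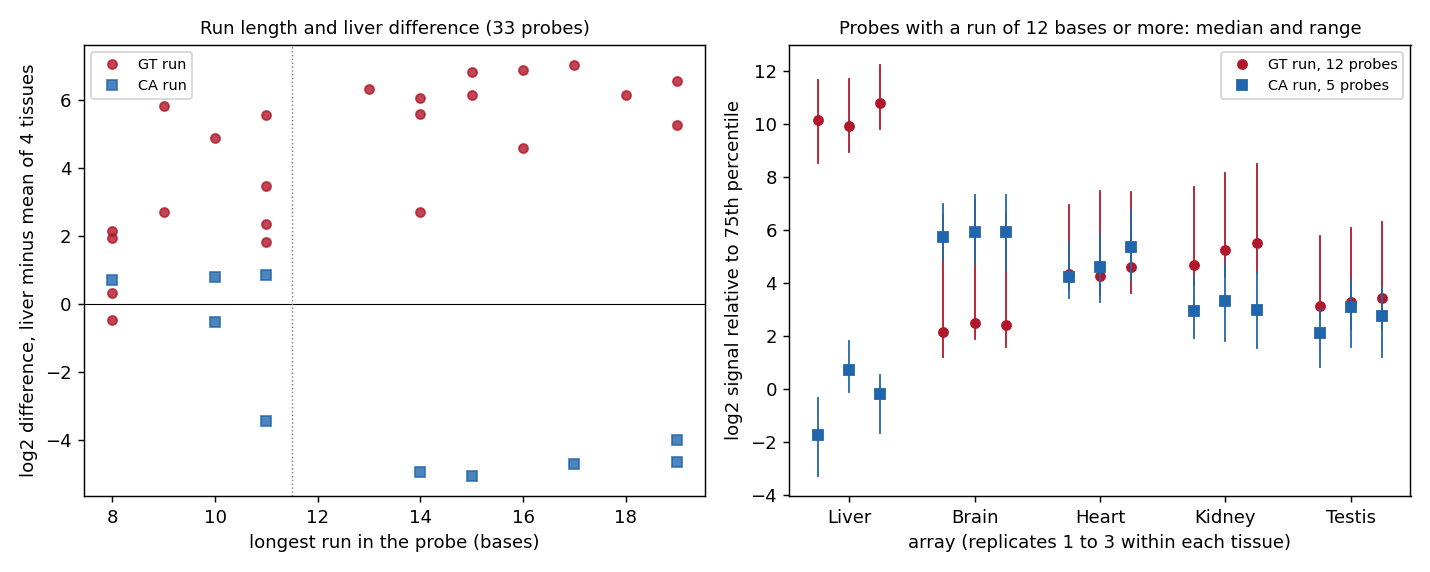
Left, the liver difference (log2) of 33 probes against the length in bases of their longest GT run (circles) or CA run (squares), with a dotted line at the 12-base limit. Right, the median (symbol) and range (line) of the levels of the 12 GT-run and 5 CA-run probes on each of the 15 tissue arrays. Median GT-run levels were 9.91 to 10.80 on liver arrays and 5.52 or less elsewhere, while the CA-run probes were highest in brain.

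The raised member with the largest difference among those with a sequence was humanlincRNA0559, which read 10.69, 9.98 and 10.83 in liver and, over the 12 other arrays, 2.02 at the lowest, 3.58 at the median and 5.17 at the highest. Its difference was 7.02 (SE 0.21, limma adjusted p 1.27e-12). The probe of the noncoding isoform of Cyp51, a P450 of cholesterol synthesis, carries a GT run of 16 bases and read 10.15, 9.30 and 10.20 in liver against 1.56 to 4.52. Peli1, an E3 ligase gene, had the brightest of these probes, with 11.66, 11.68 and 12.21 in liver and 8.48 as the highest of the other arrays. Prps1, a gene of nucleotide synthesis, gave 9.77, 9.05 and 10.11 against 1.94 to 4.41. Gm6548, a pseudogene, had the smallest difference (2.72), with 8.54, 9.74 and 9.79 in liver and up to 8.16 in kidney. Every one of the 12 was well above background on all 15 tissue arrays, so these probes were bright in liver rather than absent elsewhere.

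The GT-run probes also shared an order among the other tissues. In 10 of 12 the mean level fell from kidney over heart and testis to brain. Their median level was 4.66 to 5.52 on the kidney arrays, 4.27 to 4.61 in heart, 3.15 to 3.42 in testis and 2.15 to 2.50 in brain. On the arrays of F9, GC-1 and GC-2 the median was 6.48 to 7.42, between liver and kidney. The CA-run probes ran the other way, in 5 of 5 from brain over heart and kidney to testis, with median levels of 5.73 to 5.92, 4.23 to 5.36, 2.96 to 3.31 and 2.11 to 3.08. In liver their median was -1.73, 0.71 and -0.19, and liver replicate 1 detected 1 of the 5 against 5 and 4 on the others. Without that replicate their differences shrank but stayed negative, for AK019605 from -4.71 to -3.82 and for XLOC_021497 from -4.95 to -4.05.

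Apart from the CA-run probes, the transcripts lowered most differed in where they were highest. AK031998 read -3.05, -3.39 and -2.23 in liver, on no array well above background, and 7.57, 7.56 and 8.01 in brain, with kidney lowest at 1.44 to 2.14. Liver was at least 512-fold below brain and at least 8.19-fold below kidney. The Ldhb transcript, of the lactate dehydrogenase subunit that prevails in heart, read -3.02, -1.17 and -3.28 in liver against 5.46 to 6.20 in heart and 0.86 to 1.63 in testis, and lay at least 138-fold below kidney, the highest tissue. The lncRNA BC038906, which shares exons of Cds1, a phospholipid synthesis gene, read -2.77, -3.07 and -1.25 against a median of 5.33. For all 3 the liver arrays were below each of the 12 others.

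AK008716 was highest in heart (6.47 to 7.17) and not well above background in liver, at least 267-fold lower. EIG 180, which shares exons of Apcdd1, an inhibitor of Wnt signalling, and AB352175 were also undetected on the 3 liver arrays, at least 56.4-fold and 48.8-fold below brain, where both were highest. Gm8096, a pseudogene, read -3.11, -1.55 and 0.52 in liver, well above background on 1 array, and 1.88 to 5.77 elsewhere. Its liver replicates were spread over more than 3 log2 units, and its difference was -5.72 with the SE of the fit at 0.47 and -4.85 without replicate 1. Gm17138, antisense in an intron of Angel1, read -1.01, -1.02 and -0.57 against 2.51 to 5.14. The growth factor transcript Ptn, chosen after its values were seen, read -3.06, -1.67 and -2.06 in liver against 6.80 to 7.03 in brain.

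The liver signal was concentrated in fewer probes than that of any other tissue. The 10 brightest probes held 5.87%, 6.80% and 6.49% of the summed signal on the 3 liver arrays (6.39% ± 0.48, SD, n = 3) and 2.97% to 5.75% on the 12 others. The 100 brightest held 31.5% ± 0.74 in liver against 16.9% to 29.5%, and the 1000 brightest held 79.3% ± 1.1 against 59.4% to 77.6%. Counted the other way, 253, 236 and 243 probes supplied 50% of the liver signal, where 266 to 654 were needed elsewhere. Liver did not overlap the other tissues in any of these 4 measures, each with a two-sided exact permutation p of 0.0044 (adjusted 0.0044), the smallest that 455 splits of 3 against 12 arrays allow. The splits treat the 12 arrays of 4 tissues as 1 group, and any tissue whose 3 arrays lie at an end reaches the same p, as testis did at the other end. Heart came nearest, with 283 ± 28 probes for 50% of the signal and a lowest count of 266, and testis was farthest with 631 ± 22.

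**Figure D4:**
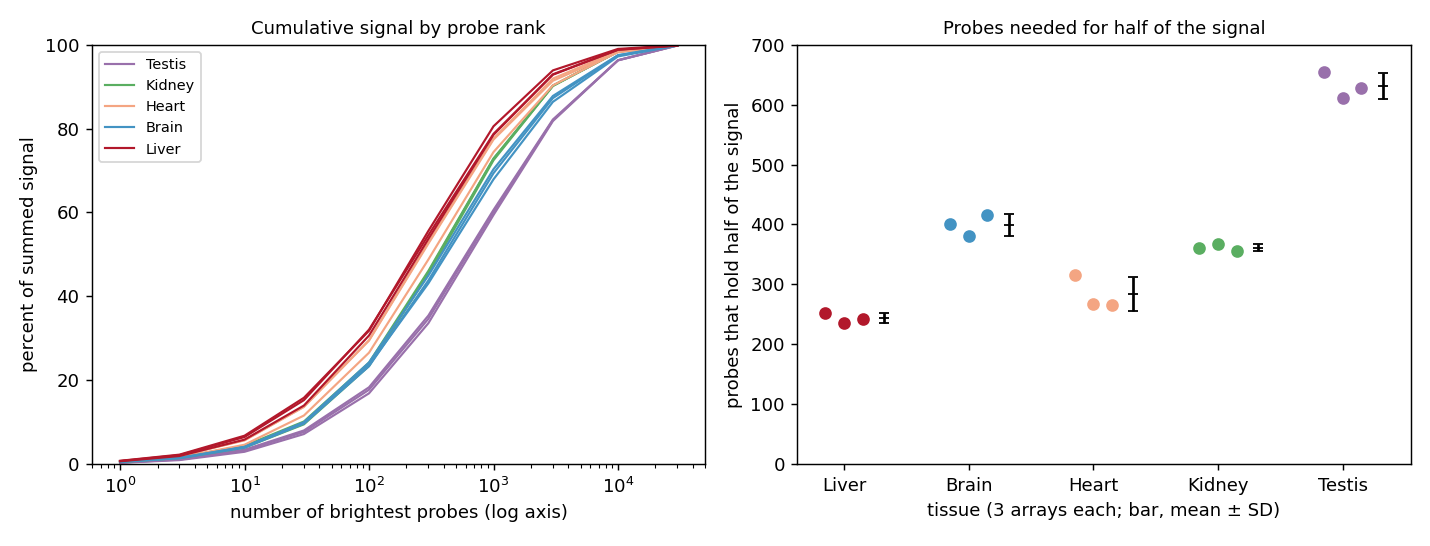
Left, percent of the summed signal held by the brightest probes of each of the 15 tissue arrays, against their number on a log axis. Right, the number of probes that hold 50% of the signal on each array with the mean and SD per tissue (n = 3). Liver needed 236 to 253 probes, below the 266 of the nearest heart array.

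The raised probes supplied much of this signal. They held 37.0% ± 2.9 of the summed signal on the liver arrays (33.7% to 39.4%) and 1.95% to 8.49% on the other 12, with kidney highest at a mean of 8.23%. The 1068 probes raised against each tissue held 28.9% ± 2.3 in liver and at most 0.740% elsewhere. The lowered probes held 0.0679% of the liver signal and 1.66% to 6.26% of the signal elsewhere. As the raised probes were chosen for being bright in liver, these shares describe them and test nothing.

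Of the 100 brightest probes, 71 were shared by all 3 liver arrays. Among these, 38 were raised, 36 were in the top 100 of no other array, and 15 were in the top 100 of all 12. Kidney shared most with liver, 33 of the 82 probes that were in the top 100 on all 3 kidney arrays, then brain with 31 of 83, heart with 22 of 81 and testis with 21 of 88. Only 23 of the 71 have a name here, and Mup-ps18 (0.270% of the liver signal) was the 1 that was both named and raised. The 10 brightest on average included 7 raised probes, and all 3 with a name were not raised.

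The brightest named probes were those of a pair of lncRNAs and of ribosomal RNA. A probe for a lncRNA inside Jarid2 held 0.773% of the liver signal, AK155692 held 0.665% and Rn45s, the ribosomal RNA precursor, held 0.575%. The first pair are bright together and share 52 bases, in capitals here.

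Jarid2 lncRNA: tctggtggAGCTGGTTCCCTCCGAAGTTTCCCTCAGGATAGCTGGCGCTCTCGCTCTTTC
AK155692: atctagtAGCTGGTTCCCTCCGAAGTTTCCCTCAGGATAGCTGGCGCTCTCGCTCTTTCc

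The Jarid2 probe read 13.35, 13.83 and 13.43 in liver and 10.46 to 12.91 elsewhere, and AK155692 read 13.09, 13.64 and 13.22 against 10.24 to 12.68. Their differences of 1.69 and 1.66 are 0.78 and 0.75 above the median of all probes, and that of AK155692 became -0.02 after quantile normalization. Rn45s behaved alike at 1.75, with -0.09 after quantile normalization. Cox2, a mitochondrial gene of the respiratory chain, read 12.35, 12.84 and 12.53 in liver and up to 12.17 in heart. It held 0.397% of the signal, and its difference turned from 1.48 to -0.21 after quantile normalization. Other bright named probes, 1700030M09Rik, XLOC_008681 and humanlincRNA1173, held 0.306%, 0.270% and 0.277%, with differences of 1.76, 1.70 and 1.29, the last of which was -0.27 after quantile normalization. Apart from Mup-ps18, the 10 brightest named probes were well above background on all 15 arrays.

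Lists of transcripts expected in most tissues were set against the median of the array, 0.91. That median covers all probes, many of them not well above background in liver. Over the probes well above background on all 15 tissue arrays the median was 0.52. The mitochondrial, ribosomal protein pseudogene and nuclear body probes below were all among these. As a yardstick, at any fold and an adjusted p of 0.05 or less, 55.4% of all probes were higher in liver and 14.7% lower. Of 12 probes of small nucleolar RNA host genes, 9 were higher and 1 lower (median 1.51). Gas5, a growth arrest lncRNA, was read by 9 of the 12, of which 8 differed by 1.21 to 1.68 and 1, detected in testis alone, by -0.77. Under summed-signal scaling 3 of the 12 were higher and 2 lower. The 6 mitochondrial probes had a median of 1.24 with 5 higher, and 1 was higher under that scaling. The remaining mitochondrial probe, DQ539915, read 12.41 on liver replicate 1 but 9.71 and 9.94 on the others, and its difference of 0.41, which did not pass the test, became -0.45 without that replicate and -0.91 after quantile normalization. Of 46 ribosomal protein pseudogenes, 38 were higher (median 0.74), but 1 was higher and 16 lower with summed signal. Of 4 nuclear body probes, 3 were lower (median -0.87, which is -1.78 from the median of all probes), also with summed signal.

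Of the imprinted lncRNAs, which are expressed from a single parental allele, 7 of 15 probes were called higher and 5 lower. None passed 5-fold under the calling rule. Only 5 of the 15 were well above background on all 3 liver arrays and 7 were so on none, so the count of higher probes includes undetected ones. H19, a fetal growth lncRNA, read 10.42, 11.92 and 11.67 in liver against 7.64 to 10.09, a difference of 2.26 (SE 0.38). Peg13 read 2.63, 2.56 and 2.54 in liver, below brain (7.42 to 7.78), heart and kidney and above testis (1.88 to 1.92), a difference of -2.27 (SE 0.18). The probes of Meg3 disagreed, from 1.42 to -2.54. That at 1.42 was well above background on 1 liver array, and without liver replicate 1 its difference was 0.69 (limma adjusted p 0.17). Those of Rian were not well above background on any liver array. The 4 Rian differences, 0.35 to 1.43, were all below 0 after quantile normalization. Those called higher, at 1.43, 0.90 and 0.73, had liver minus brain at -1.80, -1.99 and -2.52. With summed signal 1 of the 15 was higher and 6 lower.

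LncRNAs that lie in genes of liver metabolism were drawn from the brain and F9 lists, and all 14 of their probes were well above background on the 12 other arrays. Of the 14 probes 1 was raised, that of Cyp51 with its GT run, beside 3.77% of all sequenced probes, while 9 were higher at any fold and 1 lower (median 1.38), and 7 were higher and 5 lower with summed signal. The 4 probes of XLOC_011759, antisense in Slc22a28, an organic anion transporter gene, differed by 1.96 to 2.05 and had kidney as the next tissue. Gm15502, in an intron of the drug-metabolizing P450 Cyp3a13, read 3.27, 3.06 and 3.31 in liver, below heart (5.59 to 6.22) and above testis (0.12 to 0.46), a difference of -0.88 (SE 0.22).

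**Figure D5:**
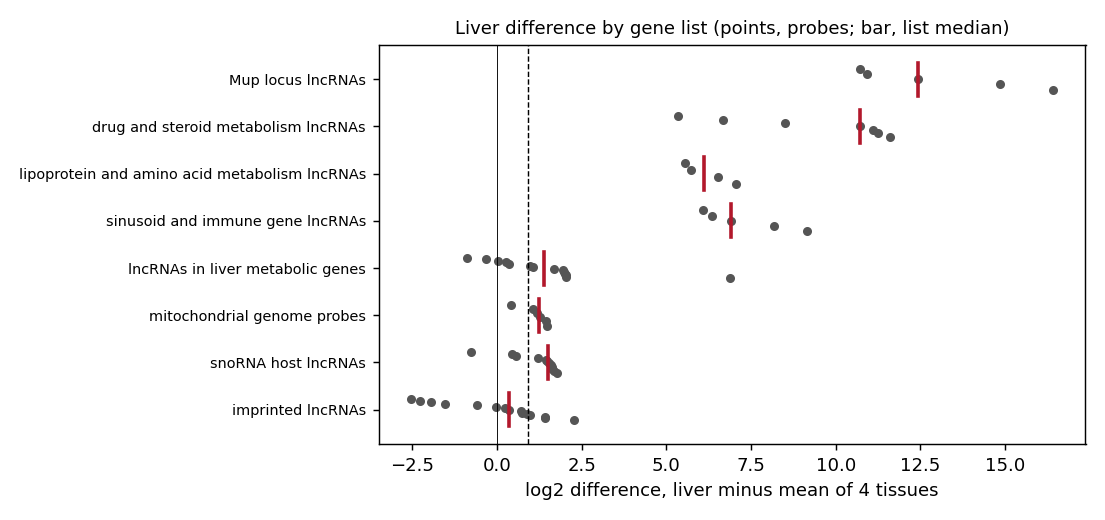
Differences (log2, liver minus the mean of the 4 tissues) of the probes of 8 lists, with each point a probe and each red bar the median of the list. The solid line marks 0 and the dashed line the median of all probes, 0.91. The 4 lists at the top, drawn from the study's liver list, have medians of 6.11 to 12.43, and the other 4 lie at 0.35 to 1.51.

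Leaving out liver replicate 1, with its high background, raised the number of raised probes to 2813, of which 2378 were shared with the 2459, and 293 of the new ones were not well above background on the array left out. Lowered probes then numbered 957, with 889 shared. Against each tissue 1182 were raised (1046 shared) and 168 lowered (139 shared). The difference of Mup-ps18 became 16.76 from 16.42 and that of Mup-ps12 14.94 from 14.84, while those of Ldhb and BC038906 became -6.57 and -7.04. On the slide that held replicate 1 of every tissue, all 2459 raised and all 990 lowered probes had the same sign as in the whole comparison. Those signs are not independent, since the same arrays entered the calls.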

How the data were processed

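The authors deposited, per array, the intensity of 62243 spots from Agilent Feature Extraction 11.5.1.1 (background-subtracted and detrended, with no normalization between arrays). Their value table holds the same intensities to within a relative 0.000228. The methods name GeneSpring GX for normalization, which these files do not show. Groups came from the sample labels. Here, the log2 processed signal of 60804 transcript probes minus the array's 75th percentile was fitted with limma 3.58.1 (R 4.3.3) on 15 tissue arrays, 1 coefficient per tissue, with Benjamini-Hochberg adjustment over all probes. The fit was tested on simulated data. Tables and permutation tests used Python 3.11.15, pandas 2.3.3, numpy 2.4.6 and scipy 1.17.1. The number of arrays limits the precision, and the limma p-values measure the spread between arrays of a tissue. The permutation p-values instead treat the arrays of the 4 other tissues as 1 group. No transcript probe was saturated.

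Named were the 12 raised and the 12 lowered named probes with the largest differences among those without overlap, the 10 brightest named probes in liver, the members of 8 lists, and 2 unnamed probes each way. Others are marked as chosen after their values were seen. The members and lists were chosen with earlier results of these data known. Columns of the supplementary lists with the authors' levels, fold changes and p-values were not used. Coordinates of lncRNAs are those of the study's lists and of RefSeq, both on GRCm38. Alternatives covered scaling, background, detection, slide, replicate number, test and single arrays. Differences of probes not well above background are fitted values and no bounds. Some withheld items are not reported here.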

Additional observations from a re-analysis of the deposited data

How the results depend on the processing

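Counts of raised, lowered, raised-against-each and lowered-against-each probes (2459, 990, 1068 and 146) moved with the scaling, background and detection rule. Summed-signal scaling gave 1522, 2775 and 740 raised-against-each, with 579 lowered against each. Scaling on probes detected on all 15 arrays gave 1660 lowered and 303 lowered against each. Quantile normalization gave 339 lowered against each. Normexp correction, on the median signal and chosen after seeing the files, gave 1131, 394, 584 and 37. A common floor gave 520 lowered and 52 lowered against each. With no detection asked, 4790, 1601 and 1611 were raised, lowered and raised against each. The methods' t-test gave 2191, 752, 1055 and 144, and after Benjamini-Hochberg 1936, 595, 1034 and 142. The slide of liver replicates 2 and 3 held no heart array. Within it the counts, against brain, kidney and testis only, were 3310, 1247, 1341 and 290, and are not like for like. With slide as a block, over all tissues, they were 2469, 1017, 1064 and 156. With the replicate number as a block they were 2459, 990, 1069 and 146, and same-numbered arrays correlated with liver at -0.14 to 0.10 and over all 30 pairs at up to 0.22, with 22 pairs under 0.1, so the numbers were not taken to pair samples. Replicate 1 of every tissue lay on slide 1. Leaving out single arrays gave 2446 to 2813, 957 to 1021, 1057 to 1182 and 143 to 168. With single arrays left out, the excess of liver over the other tissues was 1.957 to 2.426, 7.511 to 8.66 and 8.729 to 10.38 percentage points for the 10, 100 and 1000 brightest probes, and the probes that supply 50% of the signal differed by -188.5 to -153.2. Normexp correction put the excess at 1.904, 7.19 and 7.837. Leaving out saturated probes was not run, since no probe was saturated.

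Over 91 named probes and all alternatives, 2691 values kept direction and call, 143 lost and 14 gained the call, and 64 turned. After quantile normalization the differences of Rn45s, AK155692, Atpase6, Cox2, humanlincRNA1173, XLOC_021682, Airn and AK198376 were -0.09, -0.02, -0.04, -0.21, -0.27, -0.57, -1.07 and -0.61, those of the Rian probes -0.01, -0.36, -1.0 and -1.50, and that of a Meg3 probe -0.17. With summed signal, AK139402 was at -0.07, Gm13614 at -0.07, XLOC_021682 at -0.15, Gm8522 at -0.17, Snhg11 at -0.68, Gm6506 at -0.78, Gm12219 at -0.88 and AK198376 at -1.11, Meg3 probes at -0.17 and -0.42, and Rian probes at -0.24 and -0.41. With the common floor, Rian probes were at -0.04, -0.01 and -0.06 and a Meg3 probe at -0.04. Normexp correction gave -0.07 for a Meg3 probe, -0.53 for Gm12219 and -0.74 for AK198376, and scaling on probes detected on all 15 arrays gave -0.57 for AK198376. Turned values that passed no test in either setting were the following. Scaling on probes detected on all 15 arrays gave Snhg1 -0.02, Snhg11 -0.14, DQ539915 -0.18, a Rian probe -0.24, Gm6506 -0.24, Gm12219 -0.34 and Airn -0.35. Summed signal gave Snhg1 -0.57, DQ539915 -0.72, a Rian probe -0.78 and Airn -0.89. Quantile normalization gave Snhg11 -0.85, DQ539915 -0.91 and Gm12219 -0.30. The common floor gave Snhg11 -0.45, a Rian probe -0.18 and Airn -0.31, and normexp correction DQ539915 -0.40 and Gm6506 -0.24. Median scaling gave AK198376 -0.03. Within the slide of liver replicates 2 and 3, without heart, DQ539915 was at -0.02, a Rian probe at -0.00, AK198376 at -0.05 and Kcnq1ot1 at 0.36. With slide as a block Kcnq1ot1 was at 0.02. With single arrays left out, DQ539915 ran from -0.45 (without liver replicate 1) to 0.90, Snhg1 from -0.12 (without liver replicate 2) to 1.02, AK198376 from -0.01 to 0.05, and Kcnq1ot1 up to 0.03 (without kidney replicate 1). The cause was not tested. Dim liver arrays limit what can be said of probes near background, where levels have no order.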
